A study of Mus musculus with 8 samples.

Results

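The 10 genes described here mark immature neurons or the neuroblasts and progenitors that precede them: *Dcx*, *Sox4*, *Sox11*, *Neurod1*, *Eomes*, *Tubb3*, *Stmn2*, *Gap43*, *Igfbpl1* and *Dlx2*. They were chosen by symbol, and each matched 1 of the 24015 rows of the count table. All 10 passed the filter on low counts, which left 15588 genes for testing. The question was whether loss of 1 or both copies of the non-coding 1b interval of *Scn1a*, a gene for a voltage-gated sodium channel, moved these markers in the neonatal brain. RNA-seq was available from 8 C57BL/6N mice at postnatal day 7 (P7): 2 WT, both male, 4 1b+/- carrying the deletion on 1 allele (replicates 1 and 2 male, replicates 3 and 4 female), and 2 1b-/-, both female. The WT mice were male and the 1b-/- mice female, so sex can be separated from genotype in that comparison only through the 1b+/- mice, under the assumption that the sex difference is the same in every genotype. Hippocampus is the tissue on the labels, but the methods name forebrain for this age. The deletion line was expanded from Cas9-injected founders and is carried in every cell. Nothing in the labels states litters or dissection dates, so the p-values measure the spread between these libraries.

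New neurons arise from cycling progenitors and pass through a short state in which they migrate and extend their first processes. Excitatory neurons of cortex and hippocampus go through an *Eomes*-positive intermediate progenitor and then switch on *Neurod1*, while inhibitory neuroblasts, including those that travel to the olfactory bulb, depend on *Dlx2*. Both kinds then share the SoxC factors *Sox4* and *Sox11* and a set of microtubule and growth cone proteins. In the neonatal forebrain, the dentate gyrus and the wall of the lateral ventricle still produce neurons.

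The 8 libraries held 2947770 to 20878772 counts, and 3 counts, taken as the detection floor, equalled 0.145 to 1.002 CPM (counts scaled to the size of the library). *Scn1a* followed the labels, at 40.5 and 45.1 CPM in WT, 15.7 to 26.7 in 1b+/- and 2.003 and 3.18 in 1b-/-. Its log2 fold change was -0.90 in 1b+/- (adjusted p = 0.381) and -3.97 in 1b-/- (adjusted p = 5.96e-04; edgeR quasi-likelihood). Markers of neurogenesis were present in every library: *Neurog2*, a proneural factor, at 26.6 to 112 CPM and *Mki67*, a marker of dividing cells, at 252 to 613 CPM. Markers of glial maturation were low, with *Mbp*, a myelin protein, at 15.2 to 22.4 CPM and *Gfap*, an astrocyte filament, at 3.50 to 9.65 CPM. *C1ql2*, a marker of mature dentate granule cells, stayed between 0.99 and 1.35 CPM, and *Fibcd1*, which marks CA1, between 2.23 and 6.80 CPM. No library of another region or age was compared, so these levels were not set against a reference.

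The members were abundant, making up 0.966% to 1.20% of all counts in each library. By mean CPM over all genes *Sox11* held rank 3, *Dcx* 22, *Tubb3* 43, *Stmn2* 65, *Sox4* 112 and *Gap43* 223. The remaining members were lower, with *Neurod1* at rank 1232, *Eomes* at 1902, *Igfbpl1* at 1982 and *Dlx2* at 5155. Per kilobase of exon in the mm9 gene models, mean levels were 2551 CPM/kb for *Sox11*, 750.6 for *Tubb3*, 560.2 for *Stmn2*, 343.0 for *Gap43*, 157.4 for *Sox4*, 134.5 for *Dcx*, 69.3 for *Neurod1*, 38.9 for *Igfbpl1*, 31.6 for *Eomes* and 14.7 for *Dlx2*. The first place of *Sox11* depends on its gene model. With the 8451 bases of the single RefSeq exon in place of the 2013 bases of the mm9 model, *Sox11* came to 607.6 CPM/kb, below *Tubb3*. In both orders neighbouring genes can have overlapping ranges, as with *Igfbpl1* (31.0 to 52.0 CPM/kb) and *Eomes* (15.01 to 53.0 CPM/kb). Of the 50-base windows in the members' exons, the length of the reads, 99.2% to 100% occur only once in the mm9 genome, except in *Tubb3*, where 88.8% do, so that some of its reads cannot be placed uniquely.

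**Figure D1:**
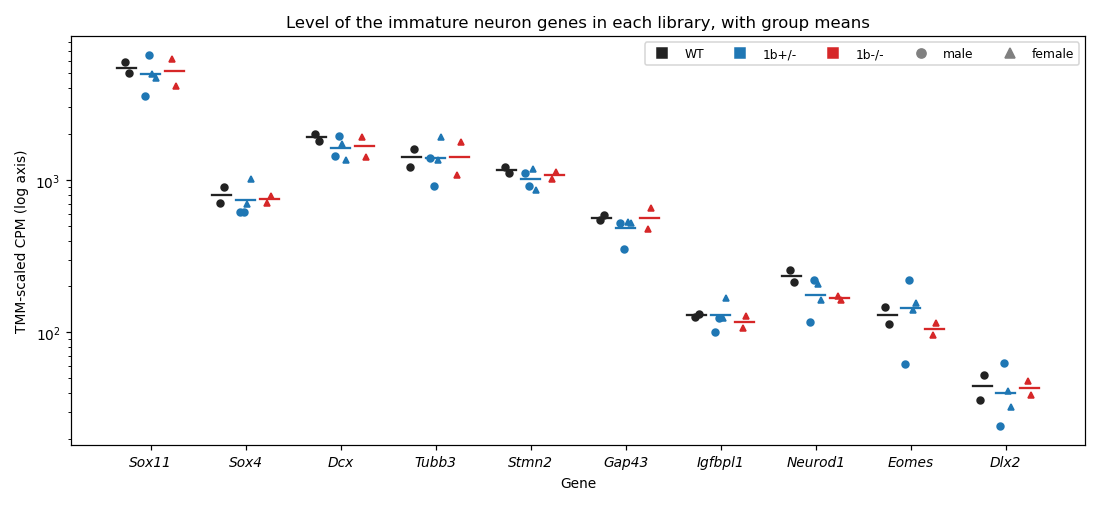
TMM-scaled CPM (log axis) of the 10 genes in each of the 8 libraries, by genotype (colour) and sex (symbol), with a bar at each group mean. *Eomes* and *Dlx2* spread most within 1b+/-, from 62.4 to 220.2 and from 24.2 to 63.0 CPM, while *Stmn2* stays between 863 and 1213 CPM.

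No member passed the test in any genotype comparison. After adjustment over all 15588 genes by the Benjamini-Hochberg method, 0 of 10 were called in 1b+/- against WT, in 1b-/- against WT, in 1b-/- against 1b+/- or along the number of deleted alleles, where 0.0834%, 0.00642%, 0.00642% and 0.0385% of all genes were called (edgeR quasi-likelihood). DESeq2 and the edgeR likelihood ratio test also called 0 of 10. At an unadjusted p under 0.05 the count was again 0 of 10 in each, against 4.34%, 1.64%, 1.23% and 1.73% of all genes. The 95% intervals of all 10 members included no change in each of these 4 fits. For 10 of 10 members in 1b+/- against WT, 8 of 10 in 1b-/- against WT and 9 of 10 in 1b-/- against 1b+/-, the interval lay wholly between a log2 fold change of -1 and 1. With 2 to 4 animals a group, changes within these intervals are not excluded. The intervals are not limits of detection. Even *Scn1a*, at -0.90 in 1b+/- against WT, was not called after adjustment (adjusted p = 0.381, edgeR quasi-likelihood).

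**Figure D2:**
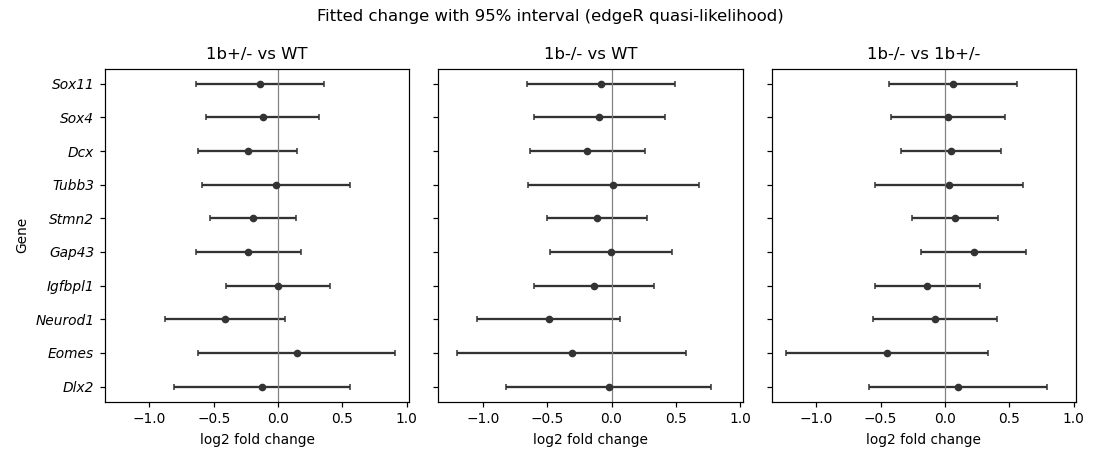
Fitted log2 fold change of each gene with its 95% interval in the 3 genotype comparisons (edgeR quasi-likelihood, all 8 libraries in 1 fit). Every interval crosses 0, and *Neurod1* lies farthest below it in both comparisons with WT, at -0.41 and -0.49.

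Most estimates lay slightly below WT. In 1b+/- 9 of 10 members had a negative log2 fold change (47.9% of all genes), with a median of -0.13 against 0.01 over all genes, and of -0.03 without 1b+/- replicate 1. With the male mice alone, 2 WT and 2 1b+/-, the count was also 9 of 10 (47.9% of all genes), with a median of -0.19. With sex as a covariate the 1b+/- median was -0.20. In 1b-/- it was again 9 of 10 (51.1% of all genes), with a median of -0.11 against -0.01. This median was -0.32 with sex as a covariate and -0.22 without 1b-/- replicate 2. Both comparisons use the same 2 WT libraries. With upper quartile scaling the count was 7 of 10 in each, and without WT replicate 2 it was 6 of 10 in each. Between 1b-/- and 1b+/-, 3 of 10 were negative (51% of all genes), with a median of 0.04 against -0.00. Along the number of deleted alleles 9 of 10 were negative (50.4% of all genes).

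Among the factors of the excitatory lineage, *Neurod1*, a basic helix-loop-helix factor that drives terminal differentiation (mm9 chr2:79292678-79296908, minus strand), had the lowest estimates of the 10. Its level was 258 and 213 CPM in WT, 117, 220, 208 and 162 in 1b+/- replicates 1 to 4, and 173 and 163 in 1b-/-. Both 1b-/- values lay below both WT values, as in 12% of all genes (23.6% did not overlap in either direction), whereas the 1b+/- range overlapped WT through replicate 2. The log2 fold change was -0.41 (SE 0.21, unadjusted p = 0.0783, adjusted p = 0.9999) in 1b+/- and -0.49 (SE 0.25, unadjusted p = 0.0771, adjusted p = 1) in 1b-/-, and -0.25 per deleted allele (SE 0.12, unadjusted p = 0.0658; edgeR). *Eomes*, the T-box factor of intermediate progenitors (chr9:118387330-118395250, plus strand), read 146 and 114 CPM in WT, 62.4, 220, 141 and 155 in 1b+/-, and 96.0 and 115 in 1b-/-. It thus held its highest and its lowest value within 1 genotype and had the widest spread of the members within groups (SD 0.61 on the log2 scale, at the 98.8th percentile of 9609 genes of at least 10 CPM). Its log2 fold changes were 0.14 (SE 0.35) in 1b+/- and -0.31 (SE 0.41) in 1b-/-.

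*Dlx2*, a homeobox factor of inhibitory neuroblasts (chr2:71381466-71384811, minus strand), was the least abundant member. It read 36.1 and 52.6 CPM in WT, 24.2, 63.0, 41.2 and 32.4 in 1b+/-, and 47.9 and 38.6 in 1b-/-, so that all WT and 1b-/- values fell inside the 1b+/- range. Its within-group SD of 0.49 (log2) was at the 96.4th percentile. *Igfbpl1*, a secreted protein of the insulin-like growth factor binding family found in young neurons, was steadier, at 126 and 133 CPM in WT, 101, 124, 125 and 169 in 1b+/- and 107 and 128 in 1b-/-. The log2 fold changes of *Dlx2* were -0.13 (SE 0.31) in 1b+/- and -0.02 (SE 0.37) in 1b-/-, and those of *Igfbpl1* were -0.00 (SE 0.18) and -0.14 (SE 0.21).

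The SoxC factors, which turn on neuronal genes in postmitotic cells, differed in which library was extreme. *Sox11* read 5899 and 5027 CPM in WT, 3568, 6624, 4968 and 4662 in 1b+/-, and 6189 and 4143 in 1b-/-. *Sox4* read 703 and 895 CPM in WT, 617, 621, 696 and 1011 in 1b+/-, and 706 and 790 in 1b-/-. Both were lowest in 1b+/- replicate 1, but *Sox11* was highest in 1b+/- replicate 2, where *Sox4* was near its minimum. Groups overlapped for both genes in every comparison, and their log2 fold changes against WT ran from -0.14 to -0.08.

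Of the cytoskeletal members, *Dcx*, a microtubule-binding protein of migrating neurons (chrX:140290385-140367854, minus strand), read 2013 and 1792 CPM in WT, 1440, 1944, 1727 and 1349 in 1b+/-, and 1920 and 1422 in 1b-/-. *Tubb3*, the neuronal β-tubulin, read 1223 and 1586 CPM in WT, 1396, 913, 1345 and 1913 in 1b+/-, and 1078 and 1762 in 1b-/-. The values of both genes overlapped between all groups. The library with the most *Tubb3*, 1b+/- replicate 4, had the least *Dcx*. *Stmn2*, a tubulin-binding protein of growing axons, was the steadiest member, at 1213 and 1110 CPM in WT, 1118, 913, 1171 and 863 in 1b+/- and 1016 and 1130 in 1b-/-. *Gap43*, a membrane protein of growth cones, read 542 and 588 CPM in WT, 521, 352, 531 and 521 in 1b+/-, and 475 and 650 in 1b-/-. All 4 1b+/- values of *Gap43* lay below both WT values, as in 5.93% of all genes; replicate 2 stood far below the other 3, and the log2 fold change was -0.23 (SE 0.19, unadjusted p = 0.239). *Gap43* was the only member whose 1b+/- and WT values did not overlap (12.3% of all genes), and no member separated 1b-/- from 1b+/- (7.39% of all genes).

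Between the sexes, which could be compared within 1b+/- alone, 0 of 10 members were called (0.0321% of all genes), and 3 of 10 were lower in females (50.7% of all genes). At an unadjusted p under 0.05 there was 1 of 10 (2.66% of all genes), *Sox4*, which was 0.46 higher in females on the log2 scale (SE 0.20, unadjusted p = 0.0424, adjusted p = 0.9999). Without 1b+/- replicate 2, which leaves 1 male, *Eomes* was called, at a log2 difference of 1.24 (adjusted p = 0.0483). Without replicate 1 instead, the *Eomes* difference was -0.58, so its sign followed which male was kept.

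The 2 male 1b+/- libraries stood at opposite ends of *Eomes*, *Dlx2* and *Sox11*, and markers of other regions and cell types differed between them. In 1b+/- replicate 1, 6 of the 10 members (*Sox4*, *Sox11*, *Neurod1*, *Eomes*, *Igfbpl1*, *Dlx2*) had their lowest value, and so did *Neurog2*, *Dlx1* and *Tbr1*. That library held the most *En2* (15.6 CPM; 0 to 2.52 in the others) and *Barhl1* (14.3 CPM; 0 to 3.54 in the others), which encode hindbrain and cerebellar homeobox factors. *Gabra6*, expressed by mature cerebellar granule cells, was at 0 to 0.33 CPM in all 8 libraries. In 1b+/- replicate 2, *Sox11*, *Eomes* and *Dlx2* had their highest value together with *Cdhr1*, a cadherin of olfactory bulb mitral cells (60.9 CPM), *Sp8*, a factor of olfactory bulb interneurons (59.8 CPM), *Tbx21* (2.73 CPM) and *Mki67* (613 CPM). *Eomes* is itself also expressed by olfactory bulb projection neurons. The summed level of the 6 olfactory bulb markers in the table was 5.21 to 8.02 CPM in WT, 9.83 to 71.6 in 1b+/- and 7.96 to 27.5 in 1b-/-. The sum of the 10 cerebellar markers did not follow *En2* and *Barhl1*: it was 407 CPM in 1b+/- replicate 1, below both WT libraries (454 and 474 CPM), 624 CPM in replicate 2, 283 and 317 CPM in the other 1b+/- and 435 and 455 CPM in 1b-/-, although 6 of the 10 were highest in replicate 1. Some genes of other cell types were also high in 1b+/- replicate 1. The 10 vascular and meningeal genes summed to 1310 CPM there, against 458 to 722 CPM in the others, but only 3 of the 10 had their highest value there. The same was true of 5 of 7 microglia genes, 5 of 8 oligodendrocyte lineage genes and 2 of 7 astrocyte genes. *Ttr*, the main transcript of choroid plexus, was lowest in 1b+/- replicate 2 (6.77 CPM) and highest in WT replicate 2 (938 CPM). The part of these cell and tissue differences in the levels of the members was not tested, and in bulk RNA fewer cells of a type and less RNA per cell cannot be told apart. With both libraries left out, 0 of 10 members were called in each genotype comparison, and 6 of 10 were below WT in 1b+/-. That left only female mice in 1b+/- and 1b-/-, against 2 male WT. Sex and genotype then cannot be told apart in the comparisons with WT.

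**Figure D3:**
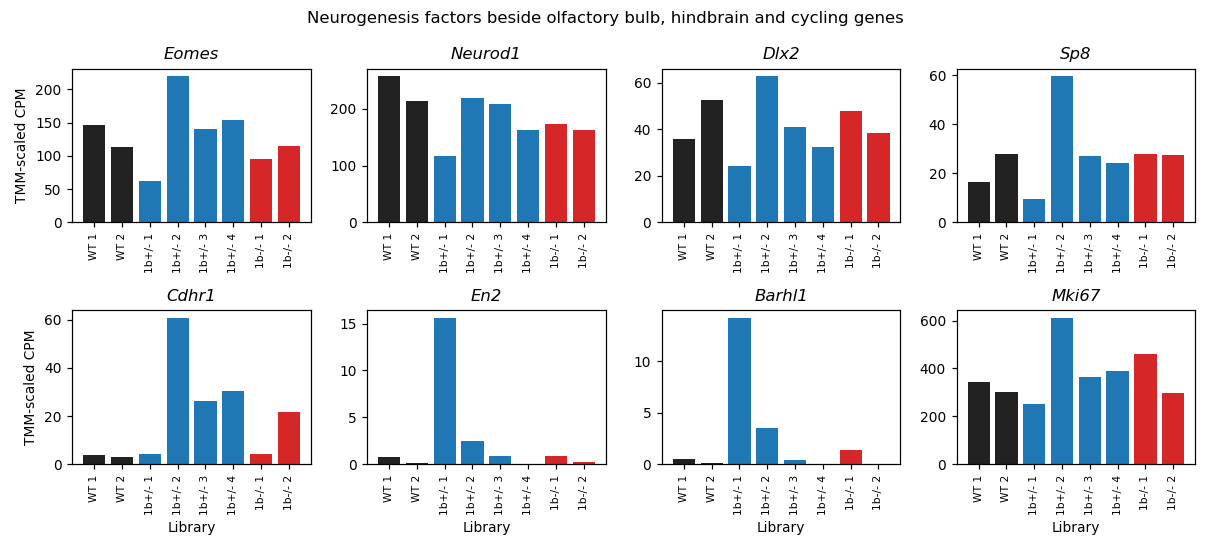
TMM-scaled CPM in each library for *Eomes*, *Neurod1*, *Dlx2*, olfactory bulb genes (*Sp8*, *Cdhr1*), hindbrain genes (*En2*, *Barhl1*) and the cycling marker *Mki67*; bars are single libraries coloured by genotype (black WT, blue 1b+/-, red 1b-/-), and each panel has its own scale. *En2* and *Barhl1* are highest in 1b+/- replicate 1, where the top row is at its lowest, and *Cdhr1* and *Sp8* are highest in 1b+/- replicate 2.

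Libraries also differed in the balance of GC-rich and GC-poor genes. The median log2 level of GC-rich minus GC-poor genes, relative to the mean library, was -0.33 to -0.14 in WT replicate 1, 1b+/- replicates 2 and 3 and 1b-/- replicate 1, and 0.16 to 0.36 in the other 4, so that each side held 1 WT, 2 1b+/- and 1 1b-/-. *Tubb3* (57.9% GC in its exons) lay at 913 to 1345 CPM on the first side and 1396 to 1913 CPM on the second. It was the only 1 of the 10 that did not overlap between the sides, as was true of 18.5% of all genes. *Dcx*, at 39.5% GC, was on average 0.35 lower on the second side (log2). Means were also lower on the second side for *Sox11* (62.8% GC in the short mm9 model, -0.45), *Dlx2* (58.9%, -0.37) and *Eomes* (52.7%, -0.45). *Neurod1* (43.6%, -0.41) and *Stmn2* (45.8%, -0.03) were lower too. *Gap43* (49.5%, 0.28), *Sox4* (51.1%, 0.26) and *Igfbpl1* (55.1%, 0.11) were higher. The balance of long and short genes (upper and lower 20% by exon length) also differed between libraries. By the same measure it ran from -0.18 in 1b+/- replicate 4 to 0.19 in 1b-/- replicate 1. The part of GC content or gene length in these differences was not tested. On the first side *Neurod1* read 258 CPM in WT, 220 and 208 in 1b+/- and 173 in 1b-/-. On the second it read 213 in WT, 117 and 162 in 1b+/- and 163 in 1b-/-. These are the values given above, with 1 WT library on each side, so the split adds no replication. Both GC alternatives were chosen after seeing the data. With the side as a covariate, the log2 fold change of *Neurod1* was -0.44 in 1b+/- (unadjusted p = 0.0127, adjusted p = 0.559; edgeR). *Dcx* was also under 0.05 unadjusted there, at -0.25 (unadjusted p = 0.0297, adjusted p = 0.623). *Neurod1* was at -0.48 in 1b-/- (unadjusted p = 0.0189) and at -0.24 per deleted allele (unadjusted p = 0.0213). The share of all genes under 0.05 in these fits is not given here. With the correction for GC and length, *Neurod1* was at -0.38 in 1b+/- (unadjusted p = 0.06, adjusted p = 0.916).

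**Figure D4:**
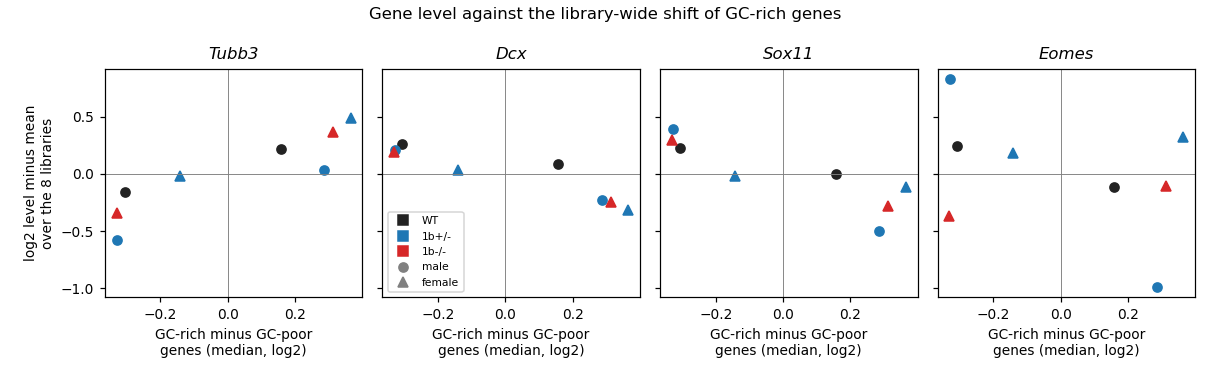
Level of *Tubb3*, *Dcx*, *Sox11* and *Eomes* in each library (log2, minus the mean over the 8 libraries) against the median log2 difference between GC-rich and GC-poor genes in that library. *Tubb3* rises from left to right, *Dcx* falls, and *Eomes* has its highest and lowest points in 1b+/- replicates 2 and 1.

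Other genes of the same pathways were read from lists, and 0 genes of the lists below passed the adjusted test. Of 15 other factors of excitatory neurogenesis, 11 were below WT in 1b+/- (median -0.19) and 14 in 1b-/- (median -0.24). The 1b+/- median was -0.07 without 1b+/- replicate 1, -0.36 without replicate 2, -0.31 without replicate 4 and -0.34 with sex as a covariate, and the 1b-/- median was -0.37 with that covariate. Of these, *Prox1*, a factor of dentate granule neurons, had the smallest p in 1b+/-, with 30.7 and 17.01 CPM in WT, 14.6, 11.6, 20.1 and 11.7 in 1b+/- and 21.2 and 30.8 in 1b-/- (log2 fold change -0.70 against WT, unadjusted p = 0.0294). Of 16 factors and enzymes of inhibitory neuroblasts, 8 were below WT in 1b+/- (median 0.00) and 3 in 1b-/- (median 0.16). These counts turned on the WT libraries. Without WT replicate 1, 12 were below in 1b+/- (median -0.17) and 9 in 1b-/- (median -0.04), whereas without WT replicate 2 it was 3 (median 0.27) and 0 (median 0.38). *Gsx2*, a progenitor factor upstream of *Dlx2*, was at 1.08 and 1.38 CPM in WT and 2.94 and 3.50 in 1b-/- (log2 fold change 1.39, unadjusted p = 0.0153).

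Of 30 further genes of the young neuronal cytoskeleton, membrane and growth cone, 27 were below WT in 1b+/- (median -0.18) and 23 in 1b-/- (median -0.07). In 1b-/- the count was 15 without WT replicate 2 (median -0.00), 16 without 1b-/- replicate 1 (median -0.02), 27 without 1b-/- replicate 2 (median -0.20) and 29 with sex as a covariate (median -0.27). The smallest p-values in 1b+/- belonged to *Ncam1*, a neural cell adhesion molecule (-0.40, unadjusted p = 0.0082), *Dpysl3*, a growth cone protein (-0.37, unadjusted p = 0.0275), and *St8sia2*, which adds polysialic acid to Ncam1 (-0.36, unadjusted p = 0.03). *Ncam1* read 2375 and 2551 CPM in WT against 1742, 1912, 1999 and 1822 in 1b+/-. The groups did not overlap, as in 12.3% of all genes (5.93% with 1b+/- lower), and *Ncam1* had been named for its small p. In 1b-/- it read 2296 and 2031 CPM (-0.19 against WT, unadjusted p = 0.228; edgeR). The range of this list's summed level was 38290 to 42150 CPM in WT, 32060 to 37020 in 1b+/- and 37400 to 38950 in 1b-/-. In 1b+/-, 20 of the 30 were below WT without both replicates 1 and 2, and also without WT replicate 2 (medians -0.10). The first of these fits sets female 1b+/- against male WT, so sex and genotype cannot be told apart there. With male mice alone, 29 of the 30 were below WT in 1b+/- (47.9% of all genes), with a median of -0.25. Among 17 tested genes of mature neurons 14 were below WT in 1b+/- (median -0.19) and 12 in 1b-/- (median -0.10). *Rbfox3*, the nuclear protein NeuN, was at 142 and 168 CPM in WT and 97.4 to 133 in 1b+/- (-0.49, unadjusted p = 0.00893, edgeR). In 1b-/- *Rbfox3* read 128 and 141 CPM (-0.20 against WT, unadjusted p = 0.288, edgeR). Of 17 radial glia and cycling genes, 12 were above WT in 1b+/- (median 0.26) and 11 in 1b-/- (median 0.06). Their summed level was 2839 and 2639 CPM in WT, 2526, 3562, 2974 and 3172 in 1b+/- replicates 1 to 4, and 2864 and 2541 in 1b-/-. In 1b+/- replicate 2, 9 of the 17 had their highest value.

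Genes whose log2 CPM followed a member most closely over the 8 libraries were found by Pearson correlation among 9608 genes of at least 10 CPM, as a description. *Tubb3* was most like *Gabarapl1* (r = 0.988), *Marcksl1* (r = 0.988) and *Stmn3* (r = 0.986). *Sox11* was most like *Dek* (r = 0.990), *Haus6* and *Dicer1* (both r = 0.989). *Eomes* was most like *Cnn3* (r = 0.981), *Tfap2c* (r = 0.979) and *Rnaseh2b* (r = 0.975), and *Dlx2* was most like *Jarid2* (r = 0.981). The points share library depth, tissue content and GC balance. *Marcksl1* and *Stmn3*, at 58.2% and 57.1% GC, are close in base composition to *Tubb3*. *Dek*, *Haus6* and *Dicer1*, at 39.8%, 41.1% and 47.3% GC, lie below the 62.8% of the short mm9 model of *Sox11*. That model has 2013 bases against 8451 in the RefSeq exon, and the GC content of the longer exon was not measured.

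Promoter sequence was available from RefSeq (GRCm38.p6, another build than the mm9 counts) for 7 of the 10 members. Of these, *Neurod1* and *Sox11* hold the palindrome CATATG, a form of the E-box that basic helix-loop-helix factors such as Neurod1 bind, in the 250 bases before the start. It was picked after the sequences were seen, and is present in 3.98% of 27025 genes. The other 5 do not hold these letters there, among them *Sox4*, *Eomes* and *Dlx2*, which were lowest in the same library as *Neurod1* and *Sox11*. Both stretches are printed 5′ to 3′ on the minus strand of the genome, where both genes lie, with the motif in capitals.
Neurod1, chr2:79456846-79456886: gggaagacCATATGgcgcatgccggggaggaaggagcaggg
Sox11, chr12:27342719-27342777: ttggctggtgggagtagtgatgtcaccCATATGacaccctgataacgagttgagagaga
The motif begins 242 bases before the start in *Neurod1* and 32 bases before it in *Sox11*. A match in these letters describes the sequence and shows no binding.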

How the data were processed

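The counts of reads per gene were deposited by the authors as 1 table of raw counts. Per the methods of the study, stranded libraries were sequenced as single-end 50-base reads, aligned to mm9 with STAR 2.7.2 and counted per gene with featureCounts. Here genes that reached 1 CPM in any library were kept, scaled by TMM and fitted with edgeR 4.0.16 (R 4.3.3; quasi-likelihood, all 8 libraries, genotype as a factor or as the number of deleted alleles), with Benjamini-Hochberg adjustment over 15588 genes and a threshold of 0.05. Sexes were compared within 1b+/-. The statistics were tested on simulated data. Depth was 2947770 to 20878772 counts per library, and floors cover counting error only. Members and gene lists were chosen with earlier results of these data known, and lists are described by counts and medians without a test of their own. All 10 members are named, with, per list of neurogenesis or cytoskeleton genes and comparison, up to 3 genes of the smallest unadjusted p under 0.05, any list gene past the adjusted threshold, and tissue markers. *Cdhr1*, *Sp8*, *En2*, *Barhl1*, *Neurog2*, *Dlx1*, *Tbr1*, *Mbp*, *Gfap*, *C1ql2*, *Fibcd1* and *Hes5* were named after their values were seen. Likeness to a member, which names *Stmn3* and *Marcksl1*, is given for 4 members. Gene lengths and GC content came from GENCODE on mm9, and GC-rich and GC-poor genes were the upper and lower 20% by exon GC. Alternatives were filterByExpr or no filter, RLE or upper quartile scaling, the likelihood ratio test, DESeq2 1.42.0, sex as a covariate, the compared groups or 1 sex alone, and each library left out. Leaving out both male 1b+/- libraries, a correction for GC and length and a covariate for the GC side of a library were added after seeing the data.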

Additional observations from a re-analysis of the deposited data

Results flagged for a closer look

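In 42 measures tested for a 1b+/- library far from the other 3 (Dixon's ratio of the gap to the range), 4 stood out. Chance flags about 1 in 20 such groups, but *En2*, *Fibcd1* and *Hes5* were named after their values were seen, so the count is not read against chance. *Gap43* was low in replicate 2 (352 CPM against 521 to 531 CPM; ratio 0.943). *En2* was high in replicate 1 (15.6 CPM, ratio 0.839), as was *Fibcd1* (6.80 CPM against 2.76 to 3.00 CPM, ratio 0.940). In 1b-/- *Fibcd1* read 2.69 and 6.01 CPM. *Hes5*, a Notch target of radial glia, was highest of the 1b+/- libraries in replicate 1 (5.02 CPM against 4.34 to 4.36 CPM, ratio 0.967). The 2 WT libraries, at 2.40 and 2.76 CPM, lay farther from the other 3 1b+/- libraries than replicate 1 did. The 1b-/- libraries lay on both sides of 1b+/-, at 2.82 and 6.76 CPM.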

How the results depend on the processing

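The count of members called stayed at 0 in the 3 genotype comparisons and along the number of deleted alleles under every alternative run. Of 920 values of single members under 21 settings, 1 was called, which was *Eomes* between the sexes without 1b+/- replicate 2. Leaving out each library in turn therefore gave 0 to 1 members called in that comparison. The median of the members in 1b-/- against WT moved from -0.11 to -0.32 with sex as a covariate. That covariate also turned *Tubb3*, to -0.48 in 1b-/- against WT and to -0.24 per deleted allele. When each library was left out, *Tubb3* in 1b-/- had a range of -0.38 to 0.33 relative to WT and -0.37 to 0.34 relative to 1b+/-, and *Gap43* had -0.0198 to 0.43 relative to 1b+/-. Between the sexes the ranges were -0.24 to 0.67 for *Neurod1*, -0.58 to 1.24 for *Eomes*, -0.46 to 0.43 for *Sox11*, -0.75 to 0.63 for *Dlx2* and -0.23 to 0.21 for *Stmn2*. The cause was not tested. In all, 95 of the 920 values had the other sign, 10 of them beyond 1 SE. Over all genes, the 13 calls in 1b+/- against WT ranged from 0 (sex as a covariate) to 64 (likelihood ratio test), with 57 without a filter and 24 with DESeq2; in 1b-/- against WT the single call became 33 without a filter, 23 with the likelihood ratio test and 13 with DESeq2. Leaving out 1 of a pair of animals assumes that the one left varies like the other groups. The sexes could not be compared without both male 1b+/- libraries. No paired analysis was possible because the labels carry no replicate numbers.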
